A study of Mus musculus with 4 samples.

Results

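Interferon receptors, STATs and response genes were examined in hematopoietic stem cells (HSC) and common lymphoid progenitors (CLP) of WT and GRK6-/- mice. The set held 9 of the 12417 genes kept from the deposited tables, namely the receptor chains Ifngr1, Ifnar1 and Ifnar2, the kinase Jak1, the transcription factor Stat2, the interferon regulatory factors Irf1, Irf7 and Irf9, and the response gene Ifitm3. The genes were chosen by symbol, and each of the 9 had a row of its own in all 4 libraries. RNA-seq was performed on 1 library for each genotype in each population, so there were no replicates, and none of the differences between libraries given here has a replicate check. The cDNA of 13 to 15 bone marrow cells, sorted from 3 to 4 C57BL/6 mice, was amplified cell by cell (20 PCR cycles followed by 10 more) before it was combined into a library. The mice were littermates from heterozygote crosses, aged 8 to 12 weeks where no other age was stated, and the labels name no treatment. GRK6-/- mice carry a deletion of Grk6 exons 3 to 9 in all cells, and WT mice carry both intact alleles. HSC were sorted as Lin-c-kit+sca-1+ and CLP as Lin-c-kit+sca-1+Il-7Ra+, so that the HSC gate was not restricted by Il-7Ra. The study compared genotypes within each population to ask which RNA levels differ with loss of GRK6, a kinase of G protein-coupled receptors, and the interferon genes are described within that comparison.

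Type I interferons bind a receptor made of the IFNAR1 and IFNAR2 chains, and type II interferon (interferon gamma) binds a receptor made of IFNGR1 and IFNGR2. The kinases bound to these chains, JAK1 among them, phosphorylate STAT proteins. A complex that holds STAT2 and IRF9 forms after type I interferon and binds the interferon-stimulated response element (ISRE), whereas signals of interferon gamma act mainly through the gamma-activated site (GAS). In bone marrow, interferons are known for driving dormant stem cells into cycle, and stem cells are known for expressing part of the antiviral response genes without infection.

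Sequences at the starts of 5 of the 9 genes are shown because they hold the letters of an ISRE core (GAAA, any 2 bases, then GAAA) or a GAS (TTCNNNGAA) on either strand. They come from the RefSeq promoter table (250 bases before to 50 after each start, GRCm38.p6). Each of the 11 promoters of the 9 genes matched the mm9 genome, the build of the deposited files, exactly 1 time, and coordinates are given for mm9. Capitals mark the motif letters.
Stat2, chr10:127707304-127707553, plus strand: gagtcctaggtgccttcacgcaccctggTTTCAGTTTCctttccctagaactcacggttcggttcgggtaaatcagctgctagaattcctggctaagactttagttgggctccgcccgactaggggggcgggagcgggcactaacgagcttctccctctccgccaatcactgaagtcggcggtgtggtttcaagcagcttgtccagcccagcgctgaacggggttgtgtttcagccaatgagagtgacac
Ifnar2, chr16:91372778-91373027, plus strand: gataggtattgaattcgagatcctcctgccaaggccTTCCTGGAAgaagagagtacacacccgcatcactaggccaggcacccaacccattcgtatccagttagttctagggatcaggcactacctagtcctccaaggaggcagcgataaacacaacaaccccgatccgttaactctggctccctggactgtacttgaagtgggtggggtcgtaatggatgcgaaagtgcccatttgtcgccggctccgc
Irf1, chr11:53583396-53583495, plus strand: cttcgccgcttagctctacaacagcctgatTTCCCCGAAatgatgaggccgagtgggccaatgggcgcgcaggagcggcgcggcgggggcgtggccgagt
Ifnar1, chr16:91485438-91485465, plus strand: gtggaggggcgggggcgTTCACGGAAgg
Ifitm3, chr7:148196614-148196641, minus strand: GAAAAGGAAAcTTCTGAGAAACCGAAAc
Positions are relative to the starts in the RefSeq table. The Stat2 stretch ends at the base before that start, which lies upstream of the start of the deposited row (127707632 in WT HSC). It holds an ISRE core on the opposite strand at position -222. The Ifnar2 stretch holds a GAS at -214, that of Irf1 a GAS at -90 and that of Ifnar1 a GAS at -5. Ifitm3 was the only 1 of the 9 with both motifs, with ISRE cores at +3 and +20 and a GAS at +14 that overlaps the second core. Promoters of Ifngr1, Jak1, Irf7 and Irf9 held neither set of letters, which says only that these letters are not in that window. Of the 11 promoters of the 9 genes, 2 held the ISRE core (18.2%) and 4 the GAS (36.4%). Of all 32851 promoters in the table, 3.44% held the ISRE core and 8.30% the GAS, against 36.5% and 25.2% of the 115 promoters of other interferon genes. A match is a description of letters, not a binding site.

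The libraries were checked before the comparisons. The tables held 10056 to 11060 genes or joint rows, with estimated depths of 2.79e+06 to 4.36e+06 fragments. Grk6 itself had 42.7 FPKM (WT) and 89.4 (GRK6-/-) in HSC, and 26.9 (WT) and 57.6 (GRK6-/-) in CLP. The libraries labelled GRK6-/- therefore did not have the lower value, and GRK6-/- stands throughout for libraries so labelled, including wherever a direction is given. A value per gene pools all exons, so it does not show whether exons 3 to 9 were missing. Of the sort markers, Kit had 53.3 FPKM (WT) and 34.4 (GRK6-/-) in HSC, and 26.2 (WT) and 81.8 (GRK6-/-) in CLP. Il7r had no row in WT and 1.08 FPKM in GRK6-/- HSC, against 120 (WT) and 75.1 FPKM (GRK6-/-) in CLP. Ly6a, which encodes Sca-1, had no row of its own. Its locus lies in a row that was named for 9030619P08Rik, alone or with other genes, and that row ranged from 1100 to 1998 FPKM.

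Markers of other cell types were not even across libraries. Markers of plasmacytoid dendritic cells, the main producers of type I interferon, summed to 14.2 FPKM in HSC of WT and 9.44 in HSC of GRK6-/- mice, against 365 and 708 in CLP of the same genotypes, with all 5 of 5 listed markers present in GRK6-/- CLP. Siglech, a receptor of these cells, had 10.0 FPKM in WT CLP and 278 in GRK6-/- CLP, whereas Ccr9 had 0.104 and 79.1, and Pacsin1 had a row only in GRK6-/- CLP. The other listed markers were near equal in the CLP libraries, with 314 and 288 FPKM for Cox6a2, which made up most of the WT CLP sum, and 41.2 and 44.0 FPKM for Tcf4. Erythroid markers summed to 38.1 FPKM in WT and 746 in GRK6-/- HSC, and 19.8 in WT and 17533 in GRK6-/- CLP (6 of 9 listed markers had a row). Neutrophil markers, here mainly genes of primary granules such as Elane, summed to 17758, 11215, 9181 and 7744 FPKM in the same order. B cell markers summed to 51.2 FPKM in WT CLP and 679 in GRK6-/- CLP, and to 0 and 0.639 in the HSC libraries. In pooled cells, fewer cells of a type and less RNA per cell cannot be told apart, and the part of these cells in the values below was not tested.

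Ifngr1, the ligand-binding chain of the receptor for interferon gamma, had the most even values of the set, with 128 FPKM (WT) and 155 (GRK6-/-) in HSC, and 136 (WT) and 144 (GRK6-/-) in CLP. All 4 values lay close together and above those of about 94% to 95% of the genes with a row in the same library. The difference of log2(FPKM + 1) between GRK6-/- and WT was 0.28 in HSC and 0.08 in CLP. Ifngr1 spanned 18268 bases on the plus strand (chr10:19311764-19330031 in WT HSC), and its longest annotated transcript had 7 exons. The partner chain, Ifngr2, had 10.9 FPKM in HSC of WT and 9.28 in HSC of GRK6-/- mice, against 14.9 and 1.98 in CLP of the same genotypes. Thus Ifngr2 was low in 1 library, whereas Ifngr1 was not, and the ratio of Ifngr1 to Ifngr2 FPKM was 11.6, 16.7, 9.17 and 72.7 in the 4 libraries.

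The chains of the type I receptor differed in level and between libraries. Ifnar1, the signalling chain of lower ligand affinity, had 1.30 FPKM in WT and 2.60 in GRK6-/- HSC, and 9.62 in WT and 6.58 in GRK6-/- CLP. Both CLP values lay above both HSC values. These are low levels, above 44.6% of the genes with a row in WT CLP and only 13.9% in WT HSC, and the WT HSC value stood on an estimated 14.7 fragments (95% Poisson interval 8.40 to 24.7), against 164 in WT CLP (140 to 191). Poisson intervals here cover counting error of fragments only, not the effect of PCR copying or the spread between cells or mice. The fragments are estimates rather than counts. The study's methods state a larger read number than these estimated depths, and at a larger depth the fragment numbers would be larger and the intervals relatively narrower. The difference of log2(FPKM + 1) between GRK6-/- and WT was 0.65 in HSC and -0.49 in CLP.

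Ifnar2, the chain that binds type I interferon with high affinity, had 39.7 FPKM (WT) and 54.8 (GRK6-/-) in HSC, and 146 (WT) and 33.4 (GRK6-/-) in CLP. The WT CLP library stood above the other 3, which lay within 33.4 to 54.8 FPKM. In CLP the WT value was 4.38-fold that of GRK6-/- (difference of -2.10 in log2(FPKM + 1), GRK6-/- minus WT), and in HSC the difference was 0.45. A difference at least as large as that of Ifnar2 in CLP was found for 23.1% of all genes tested between the CLP libraries. The ratio of Ifnar2 to Ifnar1 FPKM was 30.6 in HSC of WT and 21.1 in HSC of GRK6-/- mice, against 15.2 and 5.07 in CLP of the same genotypes, so Ifnar2 was the more abundant transcript per length in each library.

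Ifnar2 (chr16:91373028-91405832), Ifnar1 (chr16:91485460-91510767) and Ifngr2 lie with Il10rb, a receptor chain for interleukin-10 and interferon lambda, on the plus strand of chromosome 16 within 192 kb. Neighbours did not share 1 pattern. In CLP, Ifnar2 and Ifngr2 were lower in GRK6-/- by more than 2 on the log2 scale (-2.10 and -2.41), Ifnar1 by less (-0.49), and Il10rb had 9.83 FPKM in WT and 11.2 in GRK6-/- (0.17). In HSC the 4 genes differed by -0.22 (Ifngr2) to 0.65 (Ifnar1). The annotation of Ifnar2 reaches 91419696 and overlaps the start of Il10rb at 91406409, whereas the deposited Ifnar2 row ended before it.

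**Figure D1:**
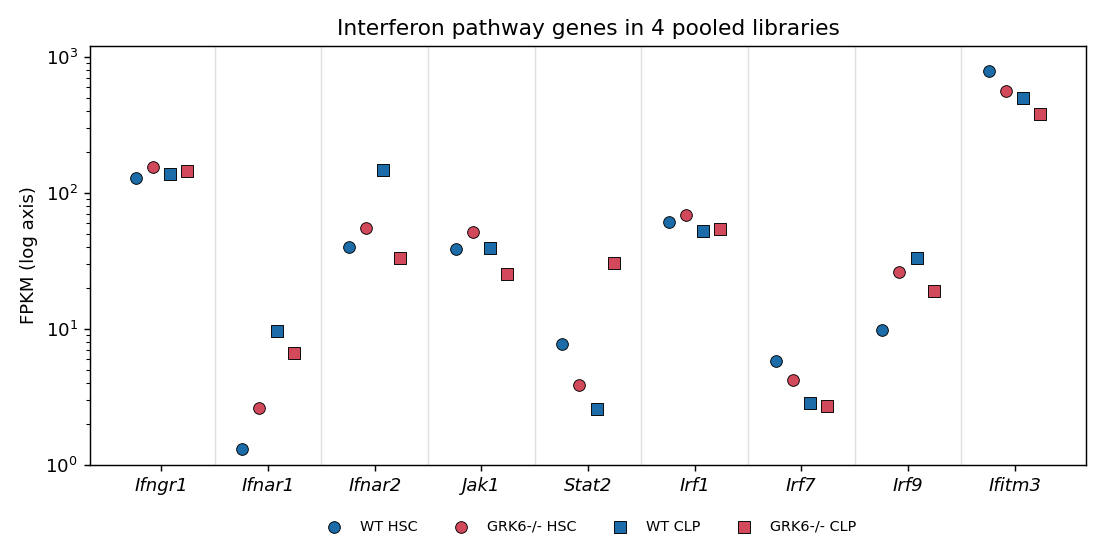
FPKM of the 9 interferon pathway genes (log axis) in WT HSC and GRK6-/- HSC (circles) and WT CLP and GRK6-/- CLP (squares), 1 point per pooled library, with no error bars because there were no replicates. Ifngr1 (128 to 155 FPKM) and Irf1 (52.2 to 68.3) form tight groups, whereas Stat2 stands apart in GRK6-/- CLP (30.3) and Ifnar2 in WT CLP (146).

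Jak1, the kinase shared by type I and type II receptors, had 38.7 FPKM in WT and 51.8 in GRK6-/- HSC, and 38.9 in WT and 25.4 in GRK6-/- CLP. The WT libraries were nearly equal, and the GRK6-/- libraries lay on either side of them, with differences of 0.41 in HSC and -0.60 in CLP on the log2 scale. Jak1 lies on the minus strand (chr4:100824579-100937887 in WT HSC) across 25 exons in its longest transcript, and its row overlaps Raver2 and 2 other annotated genes, whose reads the value may not separate. The other kinase of the type I receptor, Tyk2, had 5.05 (WT) and 6.68 FPKM (GRK6-/-) in HSC, and 7.00 and 9.06 FPKM in CLP.

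Stat2, the STAT that binds IRF9 after type I interferon, had 7.70 FPKM (WT) and 3.86 (GRK6-/-) in HSC, and 2.56 (WT) and 30.3 (GRK6-/-) in CLP. The GRK6-/- CLP library stood above the other 3, and its FPKM was 11.9-fold that of WT CLP, the largest difference in the set (3.14 in log2(FPKM + 1)). In HSC the direction was the opposite (-0.84). The low value in WT CLP stood on an estimated 49.2 fragments (95% Poisson interval 36.3 to 64.8) and the high value on 373 (336 to 413). These intervals treat fragments as independent, although they are PCR copies made without molecular identifiers. The error from the number of starting molecules is therefore not measured. Of all genes tested between the CLP libraries, 10.2% differed by at least as much. Stat2 spanned chr10:127707632-127729905 on the plus strand in WT HSC, and its row began at 127707592 in GRK6-/- CLP.

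Irf9, the DNA-binding member of the complex with STAT2, had 9.85 FPKM (WT) and 26.3 (GRK6-/-) in HSC, and 33.3 (WT) and 19.0 (GRK6-/-) in CLP. WT HSC was the low library. In HSC the GRK6-/- value was 2.67-fold that of WT (1.33 in log2(FPKM + 1)), and 26.4% of all genes tested in HSC differed by at least as much. In CLP the GRK6-/- value was the lower (-0.78). Irf9 and Stat2 differed in opposite directions in each genotype comparison, and the ratio of Irf9 to Stat2 FPKM was 1.28 in HSC of WT and 6.80 in HSC of GRK6-/- mice, against 13.0 and 0.628 in CLP of the same genotypes. Irf9 (chr14:56222822-56228867, plus strand) shared 2.54% of the 50-base windows of its transcript with its neighbour Rnf31.

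**Figure D2:**
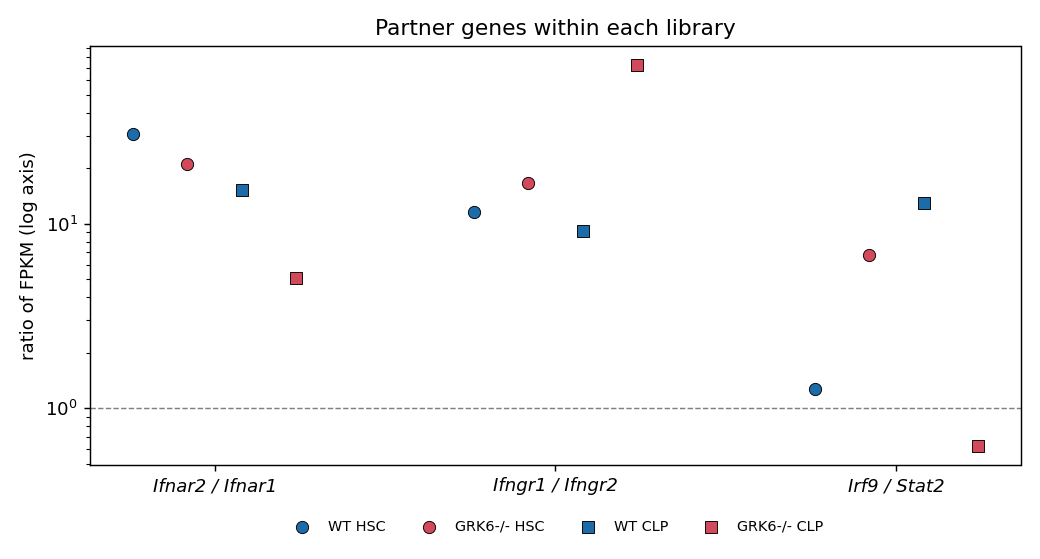
Ratio of FPKM (log axis) between partner genes within each library, for the type I receptor chains, the type II receptor chains and Irf9 over Stat2. Circles are HSC and squares CLP, and the dashed line is a ratio of 1. The GRK6-/- CLP library has the highest Ifngr1 to Ifngr2 ratio (72.7) and the lowest Ifnar2 to Ifnar1 (5.07) and Irf9 to Stat2 (0.628) ratios.

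Irf1, a factor induced by interferon gamma that also sets basal antiviral gene expression, had 61.0 FPKM in WT and 68.3 in GRK6-/- HSC, and 52.2 in WT and 53.8 in GRK6-/- CLP. The values were close in all 4 libraries, with differences of 0.16 in HSC and 0.04 in CLP. Irf2, a related factor that opposes IRF1 at shared sites, was less even, so that the ratio of Irf1 to Irf2 FPKM was 7.85 (WT) and 3.31 (GRK6-/-) in HSC, and 0.675 and 2.32 in CLP. Irf1 (chr11:53583516-53591876, plus strand) overlaps the annotated gene Gm17334, with which it shared 2.49% of its 50-base windows.

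Irf7, the factor that amplifies type I interferon production, had 5.77 FPKM (WT) and 4.20 (GRK6-/-) in HSC, and 2.86 (WT) and 2.68 (GRK6-/-) in CLP. Both HSC values lay above both CLP values, but at the estimated depths each rested on 16.7 to 37.4 fragments, with 95% Poisson intervals of 26.1 to 51.0 in WT HSC and 9.90 to 27.2 in GRK6-/- CLP. These intervals hold for the estimated depths alone. Differences between genotypes were -0.38 in HSC and -0.07 in CLP. Irf3, the constitutive factor of the same response, had 72.9 (WT) and 86.5 FPKM (GRK6-/-) in HSC, and 109 and 20.5 FPKM in CLP, so that Irf7 was at 0.0262 (WT CLP) to 0.131 (GRK6-/- CLP) of the level of Irf3. Irf7 lies on the minus strand (chr7:148449088-148452300 in WT HSC).

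Ifitm3, a membrane protein that blocks virus entry, was the most abundant of the 9 transcripts. It had 780 FPKM in HSC of WT and 564 in HSC of GRK6-/- mice, against 494 and 378 in CLP of the same genotypes, above at least 98.2% of the genes with a row in each library. GRK6-/- was lower than WT in each population by less than 1 on the log2 scale (-0.47 in HSC and -0.38 in CLP), and CLP was lower than HSC in each genotype (-0.66 in WT and -0.57 in GRK6-/-). The deposited row (chr7:148140738-148196643, minus strand) spans 55906 bases, whereas the annotated Ifitm3 gene covers 148195485 to 148196669. The row also spans Ifitm1 and Ifitm2, and Ifitm2 had no row of its own, so the value may include fragments of Ifitm2. Of the 50-base windows of the Ifitm3 transcript, 10.0% occurred in Ifitm1, Ifitm2 or Gm7676. Ifitm1 had its own row, with 225, 254, 371 and 306 FPKM in the order above, and the ratio of Ifitm3 to Ifitm1 FPKM was 3.47, 2.22, 1.33 and 1.24.

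The 9 genes were then set against all genes. A gene was called where log2(FPKM + 1) differed by at least 1, a fold threshold without a test. In HSC, 1 of the 9 genes was called (Irf9, higher in GRK6-/-), where 37.4% of all 11624 genes tested were called (19.3% higher and 18.0% lower). In CLP, 2 of 9 were called (Stat2 higher and Ifnar2 lower in GRK6-/-), where 50.0% of 11191 genes were (26.6% higher and 23.4% lower). The median absolute difference of the 9 genes was 0.45 in HSC and 0.49 in CLP, against 0.72 and 0.9995 over all genes. Calls in the set were thus not more frequent than in the libraries as a whole.

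**Figure D3:**
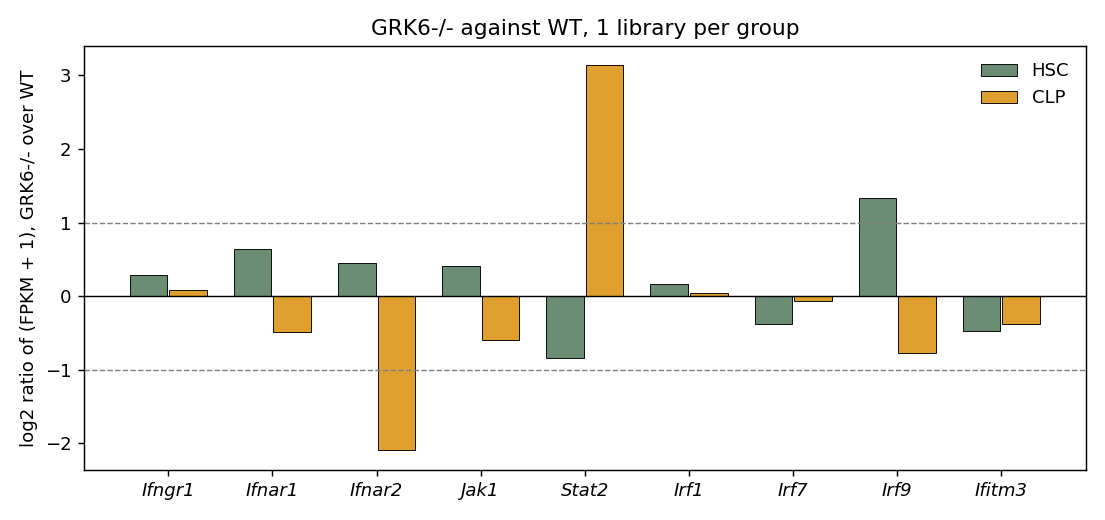
Difference of log2(FPKM + 1), GRK6-/- minus WT, for each of the 9 genes in HSC (green) and CLP (orange), with dashed lines at -1 and 1. Each bar compares 1 library with 1 other, so there are no error bars. The bars for Stat2 (3.14) and Ifnar2 (-2.10) in CLP and Irf9 (1.33) in HSC pass the lines, and those of 5 genes point in opposite directions in HSC and CLP.

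The direction differed between HSC and CLP for 5 of the 9 genes. Ifnar1, Ifnar2, Jak1 and Irf9 were higher in GRK6-/- HSC and lower in GRK6-/- CLP, and Stat2 was lower in GRK6-/- HSC and higher in GRK6-/- CLP. Ifngr1 and Irf1 were slightly higher, and Irf7 and Ifitm3 lower, in GRK6-/- of both populations. Of all 10398 genes tested in both populations, 50.0% had opposite directions, so 5 of 9 is near the background.

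Pools of the same genotype were compared in the same way, to show how far CLP and HSC differed. Between WT CLP and WT HSC, 4 of 9 genes were called, against 46.5% of all genes (21.8% higher and 24.7% lower). Ifnar1 (2.21), Ifnar2 (1.85) and Irf9 (1.66) were higher in WT CLP and Stat2 (-1.29) was lower. Between GRK6-/- CLP and GRK6-/- HSC, 3 of 9 were called, against 45.6% of all genes (22.3% higher and 23.4% lower), with Stat2 (2.69) and Ifnar1 (1.07) higher and Jak1 (-1.002) lower in CLP. Ifnar1 was the only 1 of the 9 called in the same direction in both genotypes. Its highest value was 9.62 FPKM, so both its calls are lost where an FPKM of at least 10 in 1 of the libraries is required. The call of Stat2 between the WT libraries is lost too, since its higher value there was 7.70 FPKM. Under this filter 2 of the 9 genes are called in each genotype, with 3129 (WT) and 3101 (GRK6-/-) calls among all genes. Genes below the filter are not tested, so 9 is not the number tested and no share is given. The comparisons share libraries, so they are not independent of each other.

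Effects common to both populations or both genotypes were tested with limma on log2(FPKM + 1) of the 4 libraries, which leaves 1 residual degree of freedom. That residual is how far the genotype difference in HSC departs from that in CLP. An SE given below, also called the error of an effect, measures this disagreement, moderated over all genes. It does not measure a spread between mice or pools. For the genotype effect, 0 of 11230 genes passed an adjusted p-value of 0.05 in limma, 500 had an unadjusted p-value under 0.05, and 0 of the 9 interferon genes were among either. With a variance that follows the mean (limma trend), 57 genes passed, and 0 of the 9 were among them. The largest common genotype effects of the set in limma were 1.15 for Stat2 (SE 1.15, adjusted p-value 0.999) and -0.82 for Ifnar2 (SE 1.02, adjusted p-value 0.999), each no larger than its error. For the population effect, 1 of 11230 genes passed an adjusted p-value of 0.05 in limma, and none of the 9 had an unadjusted p-value under 0.05. Ifnar1 had the largest population effect of the set, 1.64 higher in CLP (SE 0.95, limma adjusted p-value 0.920). When genes below 1 FPKM in any of the 4 libraries were left out of the limma fit, it had an unadjusted p-value of 0.0481 and an adjusted p-value of 0.710.

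The spread of each gene over the 4 libraries differed widely within the set. Ifngr1 had a range of 0.28 in log2(FPKM + 1), and only 1.02% of the 8246 genes with a row in all 4 libraries had as small a range. Irf1 had a range of 0.38 (2.39% of genes). Those ranges were followed by Irf7 (0.88), Jak1 (1.002) and Ifitm3 (1.04), all below the median range of 1.70 over all genes. Irf9 (1.66) lay near this median, and Ifnar2 (2.10), Ifnar1 (2.21) and Stat2 (3.14) lay above it. Among genes with a mean FPKM of at least 10 the median range was 1.57. The added 1 narrows the range of a low gene such as Irf7. Its highest FPKM was 2.15-fold its lowest, against 2.04-fold for Jak1 and 2.06-fold for Ifitm3. Stat2 had the widest range of the set, and 87.7% of all genes had a range as small or smaller.

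**Figure D4:**
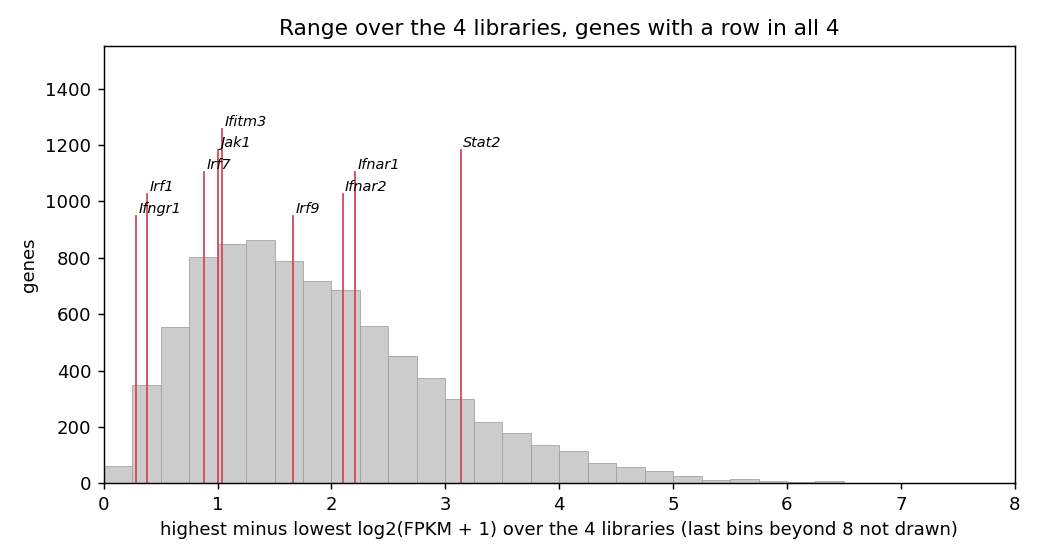
Number of genes (vertical axis) by range of log2(FPKM + 1) over the 4 libraries, for the 8246 genes with a row in all 4 (grey bars), with the 9 interferon genes marked by red lines. Ifngr1 (0.28) and Irf1 (0.38) lie at the left edge of the distribution, and Stat2 (3.14) lies in its right part.

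The genes most like each of the 9 across libraries were found by the Euclidean distance between the 4 values of log2(FPKM + 1) after subtraction of each gene's mean, over 5398 or 5399 genes with a mean FPKM of at least 10. Nup210 (distance 0.0818) and Gtf2i (0.0847) lay nearest to Ifngr1. Lyar and Rps19 were nearest to Irf1, Rpl24 and Glo1 to Jak1, Pxmp4 and Ddx24 to Ifnar1, and Cpne2 and D930015E06Rik to Ifnar2. Ccdc12 and the granule protease gene Elane were nearest to Irf7, Senp6 and Lims1 to Ifitm3, and Gm2382 and Tmem93 to Irf9. Stat2 was nearest to Birc2 (0.244), an inhibitor of apoptosis with 11.0 (WT) and 5.75 FPKM (GRK6-/-) in HSC and 3.19 and 35.4 FPKM in CLP, and to Tars. Within the set, Irf7 and Ifitm3 were the closest pair (0.233), followed by Ifngr1 and Irf1 (0.287), whereas the nearest of the other 8 to Stat2 was Ifngr1 at 2.41. These distances rest on 4 libraries and are a description.

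Other genes of the pathway were taken from a list of 128, of which 85 had a row of their own in at least 1 library. In HSC, 19 were higher and 17 lower in GRK6-/- among 82 tested (43.9% called, against 37.4% of all genes), with a median difference of 0.13 against 0.05 for all genes. In CLP, 33 were higher and 20 lower among 81 tested (65.4%, against 50.0%), with a median of 0.17 against 0.05. Ligands were nearly absent, since only Ifng of the 18 listed had a row, at 1.60 FPKM in WT HSC. Of these calls, 7 in HSC and 11 in CLP were of genes with no row in 1 of the libraries, whereas each of the 9 genes described above had a row in each library.

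Type I response genes had the largest share of calls in CLP among the groups of at least 10 genes. Of 38 tested, 20 were higher and 9 lower in GRK6-/- CLP, with a median difference of 1.34, where 26.6% of all genes were higher and 23.4% lower. Where genes without a row in 1 of the CLP libraries were left out, 15 were higher and 7 lower among 31, and the median fell to 0.97. The group was called about as often between populations. In WT, 10 were higher and 17 lower in CLP than in HSC among 38 (71.1%, against 46.5% of all genes), with a median of -0.46. In GRK6-/-, 17 were higher and 9 lower among 40 (65.0%, against 45.6%), with a median of 0.71. Bst2, which tethers budding virus and is also a surface protein of plasmacytoid dendritic cells, had 11.5 FPKM in WT CLP and 191 in GRK6-/- CLP, beside the marker sums of 365 and 708 FPKM of those cells. In HSC, 9 of the group were higher and 9 lower among 39 (46.2% called, against 37.4% of all genes), with a median of 0.15. With genes that had a row in both HSC libraries, 5 were higher and 7 lower among 32, and the median was -0.13. Sp100, a nuclear body protein, had 32.2 FPKM in WT and 39.0 in GRK6-/- HSC, and 0.327 in WT and 38.7 in GRK6-/- CLP, so that WT CLP was the library that stood apart. Rtp4, a response gene of type I interferon, ran the other way in CLP, with 65.6 FPKM in WT and 10.3 in GRK6-/-. In HSC, Ifi44 had 17.5 FPKM in WT and 1.63 in GRK6-/-, and Oasl1 had no row in WT and 10.7 FPKM in GRK6-/-. Eif2ak2, the kinase PKR, had 11.9 FPKM in WT HSC and no row in GRK6-/- HSC, but its locus carried a row named Gm6548 at 155 FPKM there and at 147 FPKM in WT CLP, so its difference cannot be told apart from naming.

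Of the type II response genes, 5 were higher and 2 lower among 16 in HSC (43.8% called, against 37.4% of all genes), and 3 were higher and 3 lower among 15 in CLP, where 50.0% of all genes were called. Both shares lie near or below the background. Irgm2, an immunity-related GTPase, had 0.591 FPKM in WT HSC and 14.9 in GRK6-/- HSC. Its relatives Irgm1 (1.60 and 10.1 FPKM) and Igtp (1.60 and 11.1 FPKM) were also higher in GRK6-/- HSC. The immunity-related GTPase genes Iigp1 (3.81 and 0.537 FPKM) and Tgtp2 (58.7 and 35.6 FPKM) were lower there, so the family did not share 1 direction. In CLP, the guanylate-binding protein gene Gbp6 had no row in WT and 51.6 FPKM in GRK6-/-, whereas Gbp2 had 13.9 and 2.54 FPKM.

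Among the other IRFs, Irf8, which is required for monocyte and dendritic cell development, had 1.12 FPKM (WT) and 41.2 (GRK6-/-) in HSC, and 152 (WT) and 190 (GRK6-/-) in CLP. WT HSC was the library that stood apart. Of the group, 3 of 4 tested were higher in GRK6-/- HSC, and in CLP 2 of 5 were higher and 2 lower, where 37.4% and 50.0% of all genes were called. Kinases and STATs outside the 9 genes were higher in 2 and lower in 3 of 8 in HSC, where Stat6, the mediator of interleukin-4 signals, had 23.9 FPKM in WT and 1.87 in GRK6-/-. In CLP, 3 of 8 were higher and 1 lower, which is 50.0% called as among all genes, the gene that was lower being Stat5a, a mediator of interleukin-7 signals, with 40.9 FPKM in WT and 4.07 in GRK6-/-.

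Of the inhibitors of the pathway, 2 of 12 were called in HSC (16.7%, against 37.4% of all genes), both lower in GRK6-/-, namely the interferon-induced protease gene Usp18 (24.7 and 3.26 FPKM) and the suppressor Socs3 (1.94 and 0.388 FPKM). Both Socs3 values are low, and its call is lost where an FPKM of at least 10 in 1 of the HSC libraries is required. In CLP, 5 of 13 inhibitors were higher and 4 lower (69.2% called, against 50.0%). Pias4, of a family of SUMO ligases that bind STATs, had 13.0 FPKM in WT CLP and 0.229 in GRK6-/- CLP, whereas its relative Pias3 had a row only in GRK6-/- CLP, at 25.5 FPKM. Socs1, a feedback inhibitor of JAK kinases, had 10.6 FPKM in WT CLP and 45.5 in GRK6-/- CLP.

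**Figure D5:**
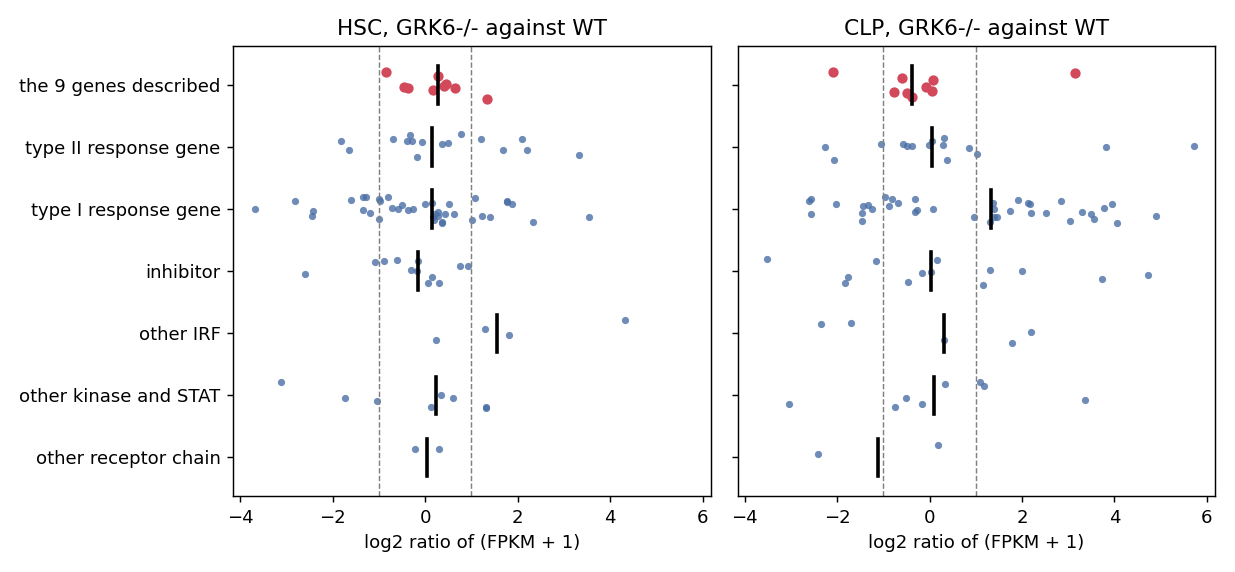
Difference of log2(FPKM + 1), GRK6-/- minus WT, in HSC (left) and CLP (right) for the 9 genes described (red) and for other interferon genes by role (blue), 1 point per gene and comparison, with black bars at the group medians and dashed lines at -1 and 1. The median of type I response genes lies at 0.15 in HSC and 1.34 in CLP, with genes that had no row in 1 of the libraries included.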

How the data were processed

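RNA-seq of 4 pooled libraries, 1 per genotype (WT, GRK6-/-) and population (HSC, CLP), was analysed. The authors aligned reads to mm9 with TopHat 1.4.0, as the submitters' processing notes give it, and deposited 1 FPKM value (fragments per kilobase of transcript and mapped fragment total) per gene and library, with loci and identifiers but without counts or error. Settings of the quantification are not given in the sources used here. No column of the authors' own comparisons was used. The tables list only genes with a value above 0. Values depend on transcript models, are not strand-resolved as far as the sources state, and follow separate PCR of each cell without molecular identifiers.

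From the deposited FPKM values, rows sharing a symbol were added, genes with no row were set to 0, and 333 of 12750 symbols or joint names in rows naming several genes were left out. Differences are of log2(FPKM + 1), which understates changes of low genes, and were called at an absolute value of at least 1. The study used a log2 fold limit of the same size together with a p-value limit. No p-value limit was applied here, and the study does not state an added 1, so calls here are not those of the study. Background shares use genes with a row in at least 1 of the libraries compared. Genes with FPKM of at least 1 in at least 1 library were fitted with limma 3.58.1 (R 4.3.3) with genotype and population as terms and Benjamini-Hochberg adjustment. Depth was estimated from steps of the lowest FPKM (at most 0.3) of genes with 1 annotated transcript of at least 1500 bases, and may be too low, since the study's methods state a larger number of reads per population (the mapped share is not given in the sources used here). Per library, 74.4% to 81.6% of these low values lay within 10% of 1, 2 or 3 steps. Poisson intervals are 95% and exact. Motifs were searched on both strands. The scripts were tested on simulated data. Values were computed in Python 3.11.15 (pandas 2.3.3, numpy 2.4.6 and scipy 1.17.1) and drawn with matplotlib 3.10.9.

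The 9 genes and the lists of other interferon genes and markers were chosen with earlier results of these data known. Named besides them were Grk6 and sort markers, the 3 largest differences in each direction and population among other interferon genes with an FPKM of at least 10, and the 2 genes nearest to each of the 9. Partner genes, neighbours on chromosome 16 and further examples (Bst2, Gbp2, Igtp, Iigp1, Irgm1, Socs1, Socs3, Tgtp2, Tyk2 and Usp18) were named after their values were seen. Alternatives tried were another pseudocount, minimum FPKM values, scaling to equal medians, a larger fold threshold, the highest row of a symbol, other limma settings and, added after seeing the data, genes with a row in both libraries only.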

Additional observations from a re-analysis of the deposited data

Results flagged for a closer look

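Differences between GRK6-/- and WT that pointed one way in HSC and the other way in CLP are listed. With 1 library per group the difference between populations was not tested. All values are differences of log2(FPKM + 1), GRK6-/- minus WT. Of the 9 genes, Stat2 had -0.84 in HSC and 3.14 in CLP, Ifnar2 had 0.45 and -2.10, Irf9 had 1.33 and -0.78, Ifnar1 had 0.65 and -0.49, and Jak1 had 0.41 and -0.60. Among the other interferon genes named, Ifi44 had -2.81 in HSC and 3.55 in CLP, where it had no row in WT, and Eif2ak2 had -3.68 and 1.402, which cannot be told apart from naming, since its locus carried a row named Gm6548 at 155 FPKM in GRK6-/- HSC and 147 FPKM in WT CLP. Stat5a had 1.31 in HSC and -3.05 in CLP, Rtp4 had 1.39 and -2.57, and Pias4 had 0.0528 and -3.51. Among further genes named as partners or examples, Irf2 had 1.30 in HSC and -1.69 in CLP, Irf3 had 0.24 and -2.36, Socs1 had -0.62 and 2.001, Socs3 had -1.08 and 1.31, and Ifitm1 had 0.18 and -0.28. Opposite directions were found in 50.0% of all 10398 genes tested in both populations.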

How the results depend on the processing

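No paired analysis was possible because each group had 1 library, and leaving out a replicate could not be run, since limma with 3 libraries has no residual degree of freedom. At an absolute log2 ratio of at least 2, the calls in HSC were 0 of the 9 genes, 12 of 82 other interferon genes and 1445 of all 11624 genes tested. In CLP they were 2 of the 9 genes, 30 of 81 other interferon genes and 2775 of all 11191 genes tested. Between populations this threshold left 1 of the 9 genes, 23 of 81 other interferon genes and 2292 of all 11202 genes tested in WT. In GRK6-/- it left 1 of the 9 genes, 24 of 84 other interferon genes and 2240 of all 11708 genes tested. With an FPKM of at least 10 in 1 of the libraries, HSC had 23 and 2417 calls (other interferon genes, all genes) and all genes in CLP had 3432, while WT populations had 2 of the 9 genes, 30 others and 3129 in all, and GRK6-/- populations 2, 33 and 3101. Fewer genes are tested under the filter, so no share is given for it. For the genotype effect in limma, 1 gene had an adjusted p-value under 0.05 after quantile normalization and 57 with a variance trend, against 0. For the population effect there were 0 with a pseudocount of 0.1, 0 without a filter, 0 with an FPKM of at least 1 in all 4 libraries and 80 with a trend, against 1. With a trend, the prior degrees of freedom of limma (the weight of the variance shared over genes) were infinite, against 7.43 in the main fit. The variance of each gene then came from the trend alone. Causes of the changes were not tested. None of the 9 genes had an adjusted p-value under 0.05 in any limma setting. In the genotype comparisons, no direction of the 9 genes reversed under the alternatives run. Values on few fragments (Irf7 and Ifnar1) are limited by depth at the estimated fragment totals.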

Other observations

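Interferon genes named only in rows with several genes were left out of the counts and are given here as values. The row of Ifi203, Ifi204, Ifi205, Mnda and Mndal, a cluster of interferon-inducible DNA sensors, had 110 FPKM in GRK6-/- HSC, and 133 (WT) and 239 FPKM (GRK6-/-) in CLP. Jak3, the kinase bound to the common gamma chain, shared a row with Insl3 in all 4 libraries, with 145 FPKM (WT) and 50.7 (GRK6-/-) in HSC, and 122 (WT) and 154 (GRK6-/-) in CLP. The row of Ifi47 and Olfr56 had 71.3 FPKM (WT) and 35.0 (GRK6-/-) in HSC and 64.9 in WT CLP. Gbp3 and Gbp7 shared a row at 108 FPKM in GRK6-/- HSC, and Oas1a and Oas1g at 32.0 FPKM in GRK6-/- CLP. Apart from the row of Jak3 and Insl3, which genes shared a row differed between libraries, and no difference between groups was computed.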
